A study of Mus musculus with 6 samples.

Results

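Blastocysts from uteri that lacked epithelial *Lif* were compared with blastocysts from control uteri. Each group was 1 pooled library, so 2 of the 6 libraries of the series were compared. Of the 23420 genes in the table, 14873 were included because the 3 blastocyst libraries together gave them 10 counts or more (184 had 10, and 132 more had 9 and were left out). Control embryos came from Lif-floxed females without Cre. Mutant embryos came from *Lif* eKO females, in which an *Ltf* promoter-driven Cre removes the floxed *Lif* gene from the uterine epithelium. The embryos of all groups carried the label Lif-floxed/+, so the deletion was maternal and the embryos kept *Lif*. Both groups received PBS, and embryos were collected on day 4 of pregnancy at 8 pm. The remaining blastocyst library came from *Lif* eKO females that received recombinant Lif (rLif) in doses of 20 µg per head, the first at 10 am and the second at 6 pm, and its values are given beside the others. Each library held blastocysts pooled from several females, and the spread between females or pools could not be measured. No p-value is therefore given, and every difference is between libraries, not conditions.

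On the evening of day 4 the mouse blastocyst is free in the uterine lumen, shortly before it attaches. Its outer layer, the trophectoderm, builds the cavity and later the placenta, and its inner cells divide into the epiblast and the primitive endoderm. Lif is a cytokine that signals through the receptors Lifr and gp130 to Stat3, and in mice lacking it the embryos do not implant and can stay in a dormant state called diapause.

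Depth was alike, with 18996158 counts (control), 19638852 (eKO) and 19417359 (rLif-treated eKO). Levels are given as CPM, counts scaled to a common library size, with sizes set by TMM, a method that assumes that most genes do not differ. A gene was called where the exact 95% interval of the ratio of its 2 counts lay wholly beyond 2-fold in either direction. That interval covers counting error only. Of 14873 genes, 468 were called (3.15%), with 192 higher in eKO (1.29%) and 276 lower (1.86%). Most calls were among rare transcripts. When genes were split by mean CPM into 3 classes of equal size, the most abundant class held 2 higher and 10 lower calls, and 97.9% of its genes lay within 0.5 of a log2 ratio of 0. The middle class held 13 and 51 calls, and the rarest 177 and 215. Of the genes called higher, 79 had 0 counts in control, and of those called lower, 96 had 0 in eKO. Only 19 genes of at least 20 CPM on average were called, 3 higher and 16 lower, out of 7276. Had the pools been assumed to vary with a dispersion of 0.1 or 0.2, edgeR's exact test would have called 65 or 10 genes in place of 468.

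**Figure D1:**
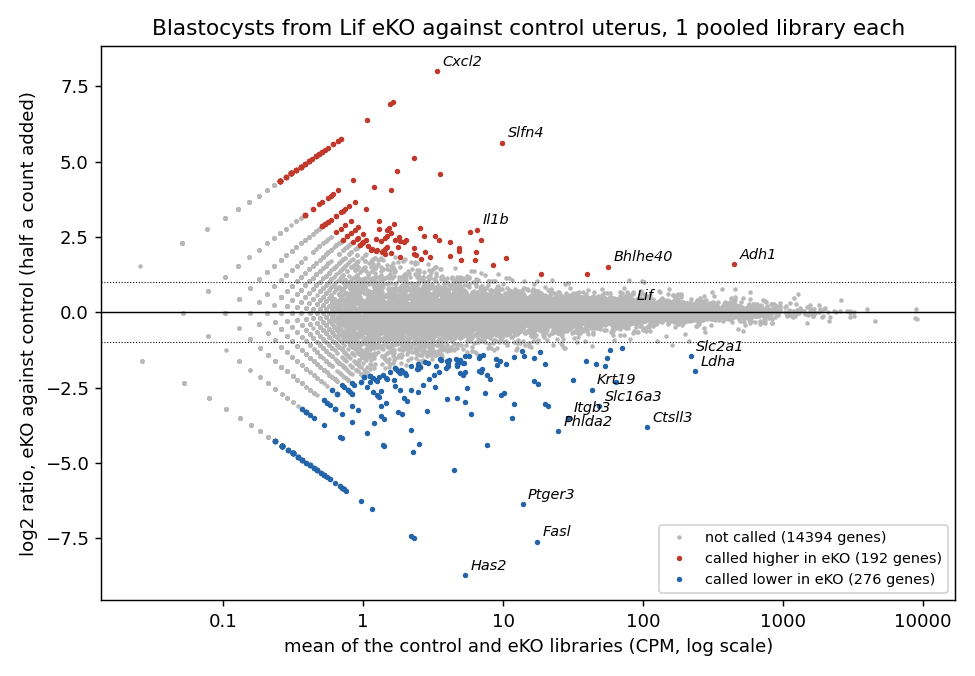
Each point is 1 gene, with its mean CPM in the control and eKO blastocyst libraries on the x axis (log scale) and its log2 ratio, eKO against control, on the y axis after adding 0.5 counts to each library. Red and blue points are the 192 genes called higher and the 276 called lower, dotted lines mark 2-fold, and most of the abundant genes lie close to 0 while the named genes stand away from it.

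The label of blastocyst fitted its markers. Of 32 inner cell mass and epiblast genes measured, 26 lay within 0.5 of a log2 ratio of 0, and the median was 0.05 beside -0.003 over all genes. The pluripotency factor *Pou5f1* had 5810 counts in control, 6172 in eKO and 8033 with rLif, *Nanog* had 2281, 2094 and 3512, and *Sox2* had 1185, 1305 and 1435. The trophectoderm factor *Cdx2* had 11832, 16038 and 18477 counts, *Gata3* had 19242, 24188 and 22656, and *Eomes* had 12879, 12591 and 12584. For the primitive endoderm factors, *Gata6* had 3454, 3547 and 5388 counts and *Sox17* had 2081, 2233 and 2531. All 3 lineages were thus present in both libraries, and none of these 8 genes was called. Summed levels were also similar for Y-linked genes (96.1 CPM in control and 107 in eKO) and X inactivation genes (330 and 324). Y-linked *Ddx3y* had 1118 counts in control and 1107 in eKO, and *Xist*, which silences one X chromosome in females, had 2655 and 2343. None of 8 Y-linked genes (median log2 ratio 0.13) and none of 4 X inactivation genes (0.22) was called. Single Y-linked genes varied, with 5 ratios above 0 and 3 below. *Uty* had 244 counts in control and 405 in eKO, and *Kdm5d* had 63 and 132.

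None of 27 measured genes of Lif and gp130 signaling was called, and their median log2 ratio was 0.20, with 18 above 0. Blastocysts made *Lif* transcript in every group, with 1447 counts in control, 1736 in eKO and 1250 with rLif, a log2 ratio of 0.23 (95% interval 0.13 to 0.33). The maternal deletion was not expected to remove this transcript, so it does not check the labels. The receptor gene *Lifr* had 778, 1130 and 521 counts (0.50, 0.37 to 0.64), *Il6st*, encoding gp130, had 998, 1296 and 1051, and *Stat3* had 3699, 4651 and 4870. *Socs3*, a feedback inhibitor induced by Stat3, had 4031, 5440 and 3248 counts (0.40, 0.34 to 0.46).

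A set of trophoblast genes was lower in eKO blastocysts. Of 27 trophectoderm genes measured, 4 were called lower and 0 higher, beside 1.86% and 1.29% over all genes. The median of the list was -0.01. *Krt19*, a keratin of trophectoderm, had 1401 counts in control, 241 in eKO and 108 with rLif (log2 ratio -2.58, -2.78 to -2.38). *Ascl2*, needed for the spongiotrophoblast, had 335, 53 and 15 counts (-2.70, -3.14 to -2.27). *Hand1*, which drives giant cell formation, had 253, 56 and 72 counts, and *Dlx3*, a placental transcription factor, had 42, 6 and 4. In all 4 genes the control library was highest and both eKO libraries were low. By contrast, the keratin genes *Krt8* and *Krt18* had 43414 and 36189 counts in control and 46083 and 40022 in eKO. The trophoblast genes *Elf5* (1988, 1311 and 902 counts), *Plac1* (3488, 2092 and 699) and *Tfap2c* (6416, 4211 and 4412) were below control in eKO but were not called.

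Some genes of later trophoblast were also lower. Of 12 giant cell differentiation genes measured, 2 were called lower and 1 higher, beside 1.86% and 1.29% over all genes. Their median was 0.09. *Ctsll3*, a cathepsin of the placental family, had 3804 counts in control, 276 in eKO and 67 with rLif (-3.82, -4.00 to -3.64). It is on chromosome 13 (60798250 to 60802844, minus strand, GRCm38). X-linked *Rhox6* had 60, 10 and 14 counts, and *Bhlhe40*, a repressor whose exons overlap another gene, was the higher member, with 558, 1639 and 92. Among the symbols starting with Prl or Psg and a number, a family chosen after its values were seen, 3 of 39 genes were measured. *Psg29* had 88, 0 and 0 counts, and against a floor of 3 counts this is at least 30.1-fold lower in eKO. *Prl5a1* had 29, 0 and 0, and both genes reached the count minimum through the control library alone. The third, *Prl8a9*, went the other way with 2, 9 and 10 counts and was not called.

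The genes called lower with the largest interval bounds had varied roles. *Fasl*, encoding the ligand that triggers death through the Fas receptor, had 668 counts in control, 3 in eKO and 13 with rLif (log2 ratio -7.83, -10.12 to -6.28). It is on chromosome 1 (161780692 to 161788495, minus strand). *Ptger3*, a receptor for prostaglandin E2, had 521, 6 and 11 counts (-6.48, -7.93 to -5.34). *Gpr1*, a chemerin receptor, had 166, 4 and 2 counts, and *Tfec*, a transcription factor of the Mitf family, had 279, 13 and 4. *Has2*, which makes hyaluronan, had 205, 0 and 0 counts, at least 70.1-fold lower, but its exons overlap another gene and its value is uncertain. *Fgf5*, an epiblast growth factor and the 1 inner cell mass gene called, had 84, 0 and 6, at least 28.7-fold lower. *Wipf3* had 44, 0 and 2. In each of these 7 genes, the control library was far above the other two. *Gpr1*, *Has2*, *Fgf5* and *Wipf3* reached the count minimum through the control library alone.

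Among genes of at least 20 CPM, others called lower were not members of any list. *Nfatc1*, a calcium-regulated transcription factor, had 712 counts in control, 85 in eKO and 23 with rLif (-3.10, -3.44 to -2.78). *Aif1l*, an actin-binding protein gene, had 2029, 420 and 402 counts (-2.31, -2.46 to -2.16). Both were highest in control by a wide margin, and *Aif1l* was level between the other two libraries.

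**Figure D2:**
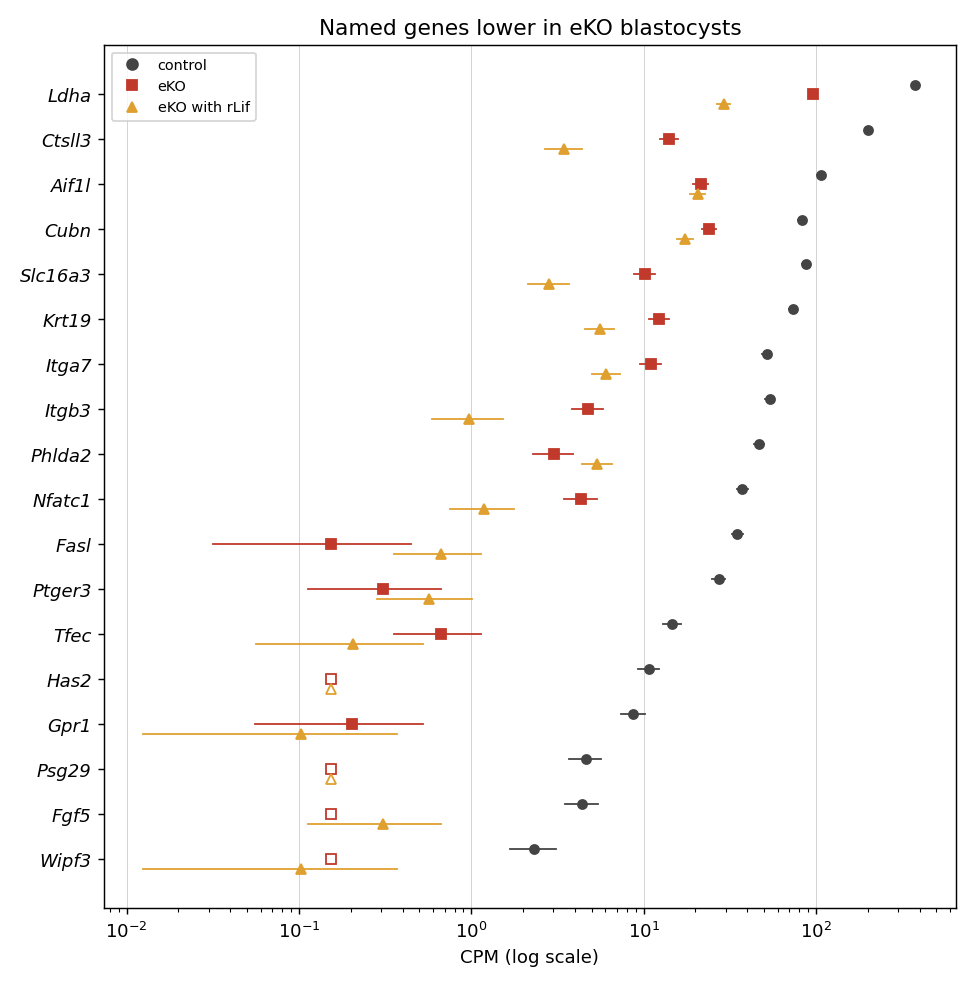
CPM on a log x axis for the named genes called lower in eKO blastocysts that lead by size or among genes of at least 20 CPM, with 1 point per library (control circle, eKO square, eKO with rLif triangle) and exact 95% Poisson intervals. Open symbols stand at the floor of 3 counts for libraries with 0 counts, and the control point lies to the right of both eKO points for every gene, from *Ldha* (376 CPM against 96.6 in eKO and 29.2 with rLif) to *Wipf3*.

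Genes of glucose uptake and lactate release were among those lower in eKO. Of 29 genes of glycolysis and hypoxia measured, 4 were called lower and 0 higher, beside 1.86% and 1.29% over all genes. The median was -0.22 with 20 below 0. *Slc2a1*, encoding the glucose transporter Glut1, had 6133 counts in control, 2286 in eKO and 1648 with rLif (-1.46, -1.53 to -1.39). *Pfkp*, a phosphofructokinase, had 340, 123 and 55 counts. *Ldha*, whose enzyme makes lactate from pyruvate, had 7174, 1888 and 567 counts (-1.96, -2.04 to -1.89). *Slc16a3*, encoding the lactate exporter Mct4, had 1668, 198 and 55 counts (-3.11, -3.33 to -2.90). All 4 genes were highest in control and lowest with rLif. Other transporters and enzymes were not called. *Slc2a3*, encoding Glut3, had 34498, 37261 and 20521 counts, *Hk2*, a hexokinase, had 7073, 8964 and 6060, and *Pkm*, a pyruvate kinase, had 17894, 14419 and 13244 (-0.35). The hypoxia-responsive *Ndrg1* went the other way between control and eKO, with 19257 and 30189 counts, then 7787 with rLif. In the respiratory chain, all 30 genes lay within 0.5 of 0, with a median of 0.00 and 0 called.

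The promoters of 3 of these glucose genes are shown because each held the pentamer ACGTG, the core of the site bound by hypoxia-inducible and other bHLH factors. The lines give the 150 bases before the RefSeq start (GRCm38.p6, plus strand), 5′ to 3′, at chr4:119108595-119108744, chr11:120948917-120949066 and chr7:46845654-46845803, with each ACGTG or its complement in capitals.
Slc2a1: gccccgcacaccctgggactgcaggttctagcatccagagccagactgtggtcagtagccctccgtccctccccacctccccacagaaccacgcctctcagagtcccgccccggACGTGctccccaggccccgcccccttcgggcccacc
Slc16a3: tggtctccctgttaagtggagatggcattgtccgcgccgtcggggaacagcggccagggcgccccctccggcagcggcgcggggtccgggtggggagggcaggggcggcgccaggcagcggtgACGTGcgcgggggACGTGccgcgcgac
Ldha: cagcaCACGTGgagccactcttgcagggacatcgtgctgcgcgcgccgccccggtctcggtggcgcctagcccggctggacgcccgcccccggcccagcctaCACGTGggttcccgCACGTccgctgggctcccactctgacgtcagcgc

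The RefSeq start used for *Slc16a3* lay 583 bases from the deposited start of the gene, against 0 for *Slc2a1* and *Ldha*. The motifs and the genes shown were chosen after the values were seen. Over the 250 bases before the start and on both strands, ACGTG (a match of CACGTG is read on both) was present in 14 of 27 glycolysis and hypoxia genes with a RefSeq promoter (51.9%) and in 21.2% of all 10870 genes measured that had one. The shares were 15.1% among genes called higher and 19.5% among genes called lower. The median GC content of the windows was 62.8% in the glycolysis and hypoxia list, 59.6% over all genes, 52.6% in genes called higher and 59.6% in genes called lower. The Stat-type motif TTCNNNGAA was present in 15.9% of promoters of genes called higher, 3.68% of those called lower and 5.86% of all. The AP-1-type motif TGANTCA was present in 15.1%, 6.32% and 4.42%. A match is a description of letters and was not tested as a site.

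Most attachment genes were not called. Of 32 genes of the EGF family, adhesion and attachment, 3 were called lower and 0 higher, beside 1.86% and 1.29% over all genes. The median was 0.05. *Itgb3*, the beta3 integrin chain, had 1026 counts in control, 93 in eKO and 19 with rLif (-3.50, -3.82 to -3.19). *Itga7*, a laminin receptor chain whose exons overlap another gene, had 987, 215 and 118 counts. *Egfr*, the receptor for EGF and Hbegf, had 117, 33 and 5 counts (-1.86, -2.47 to -1.29), while its ligand *Hbegf* had 202, 283 and 78. Among integrin genes, a family gathered by symbol after its values were seen, 3 of 20 measured were called lower, the third being *Itga4* with 29, 3 and 3, and 0 were higher. *Itga4* reached the count minimum through the control library alone. The integrin chains *Itgb1* (4487, 4625 and 4436 counts) and *Itgav* (1282, 997 and 637) were not called. In the list of cavity pumps and junctions, 0 of 28 genes were called and 26 lay within 0.5 of 0.

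Of 26 primitive endoderm genes measured, 5 were called lower and 0 higher, beside 1.86% and 1.29% over all genes. Their median was -0.18. *Cubn* and *Amn*, which form the endocytic receptor cubam, had 1587, 469 and 337 counts and 306, 96 and 57 counts. *Rspo3* and *Ttr*, also called, had 14 and 15 counts in control and 0 in both other libraries. They reached the count minimum through the control library alone. *Dab2* (17546, 19192 and 15577 counts) and *Lamc1* (7516, 9509 and 5606) were not called.

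Of 29 imprinted genes measured, 3 were called lower and 0 higher, beside 1.86% and 1.29% over all genes. Their median was -0.11. *Phlda2*, which limits placental growth, had 890 counts in control, 59 in eKO and 105 with rLif (-3.95, -4.36 to -3.57), and *Cdkn1c*, a cell cycle inhibitor, had 200, 77 and 54. The third was *Ascl2*. These 3 genes and the noncoding *Kcnq1ot1*, which had 1041, 893 and 937 counts, belong to 1 imprinted cluster on chromosome 7.

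Most proliferation and dormancy genes were not called, and over all genes 1.29% were called higher and 1.86% lower. Of 36 cell cycle genes, 34 lay within 0.5 of 0, and only *Ccnd2*, a D cyclin with 159, 60 and 60 counts, was called (lower). *Mki67* had 3343, 3805 and 3985 counts. In the list of dormancy, Myc and mTOR, 33 were measured, 1 was lower (*Cdkn1c*) and 1 higher (*Slc7a11*, a cystine transporter, with 5, 28 and 9 counts), and the median was 0.00. *Myc*, which falls in dormant embryos, had 4756 counts in control, 2961 in eKO and 3227 with rLif (-0.72, -0.79 to -0.65) and was not called. *Mtor* had 931, 948 and 946 counts. Of 30 ribosomal protein genes, 29 lay within 0.5 of 0, 25 were below it and the median was -0.10. In the p53 and apoptosis list, 30 genes were measured and *Fas*, the receptor of Fasl, was the 1 called higher (0, 19 and 2 counts, at least 6.18-fold). *Fas* reached the count minimum through the eKO library alone. Of 27 immediate early genes, with a median of -0.23, 3 were called lower and 0 higher (*Ier5*, *Atf3* and *Fosl1*). *Ier5* had 212, 55 and 36 counts. *Fosl1* (12, 0 and 0 counts) reached the count minimum through the control library alone.

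**Figure D3:**
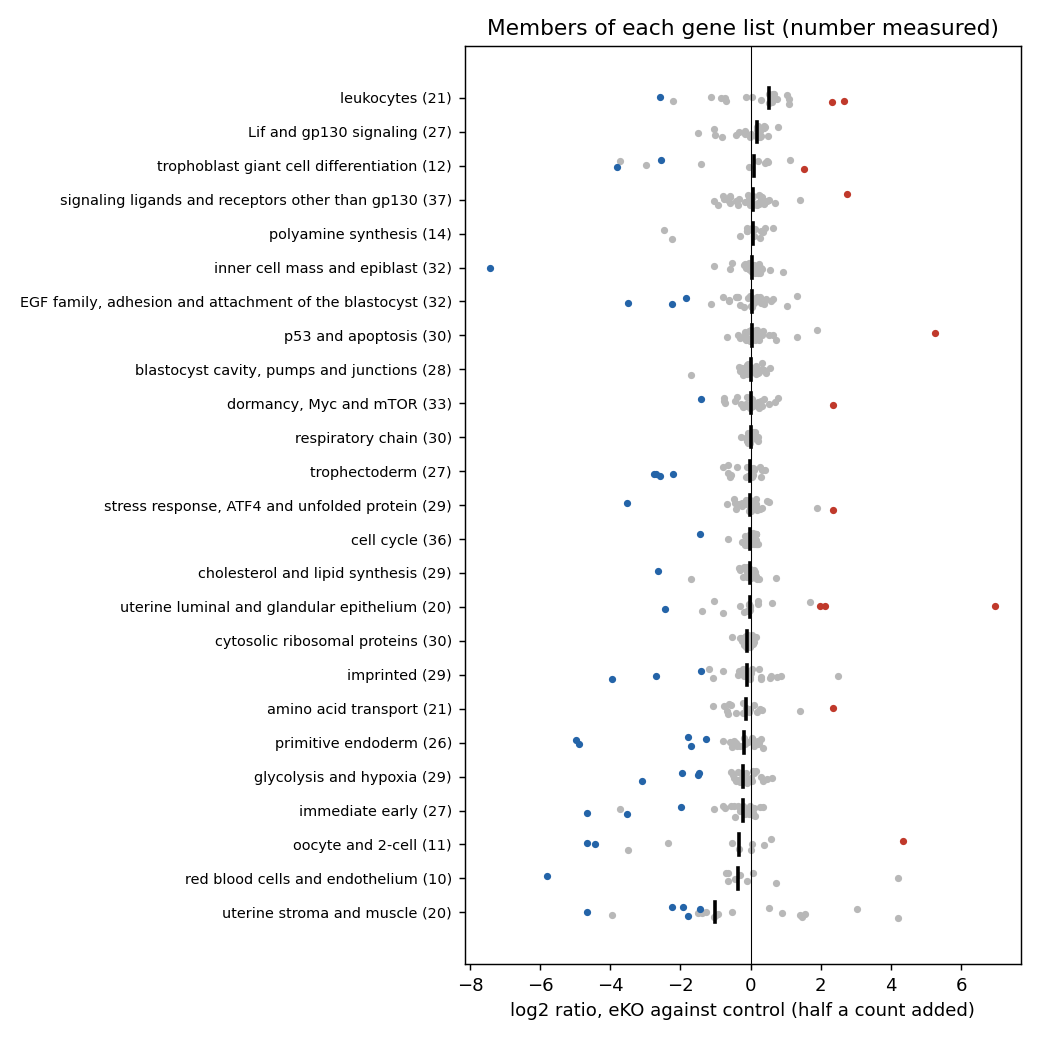
Log2 ratios, eKO against control, for the measured members of 25 gene lists (points, red called higher, blue called lower, grey not called), ordered by the list median (black bar), with the number measured in parentheses. Medians lie close to 0 for lists such as cell cycle and respiratory chain, and the uterine stroma and muscle list lies lowest at -1.03.

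The 10 genes called higher in eKO with the largest interval bounds included chemokines and myeloid genes. *Cxcl2*, a neutrophil attractant, had 0 counts in control and with rLif and 131 in eKO, so that it was at least 42.6-fold higher there. *Slfn4*, a myeloid gene, had 7, 379 and 17 counts (5.72, 4.67 to 7.05). *Irg1*, which makes itaconate in activated macrophages, had 5, 134 and 26 counts, *Clec4e*, a macrophage receptor, had 2, 88 and 12, and *Cxcl10*, an interferon-induced chemokine, had 2, 66 and 2. In these 5 genes the eKO library was far above the other two. *Lcn2* (0, 64 and 13 counts), *C5ar1* (0, 61 and 17), *Tnf* (0, 42 and 0), *Ccl2* (0, 27 and 0) and *Maml2* (0, 27 and 11) completed the 10. Of these genes, *Cxcl2*, *Cxcl10*, *Tnf* and *Ccl2* reached the count minimum through the eKO library alone. *Il1b* had 32, 222 and 12 counts (2.76, 2.22 to 3.34) and was the 1 gene called of 37 in the list of other signaling ligands and receptors (median 0.08). Among chemokines, gathered by symbol after their values were seen, 5 of 18 measured were called higher and 1, *Ccl8* (37, 0 and 0 counts), lower. *Ccl8* reached the count minimum through the control library alone. The shares over all genes were 1.29% higher and 1.86% lower.

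The Cxcl2 promoter is shown because it held the NF-kB consensus motif (2 overlapping matches), in capitals (chr5:90903749-90903898, GRCm38.p6, plus strand, 150 bases before the RefSeq start).
Cxcl2: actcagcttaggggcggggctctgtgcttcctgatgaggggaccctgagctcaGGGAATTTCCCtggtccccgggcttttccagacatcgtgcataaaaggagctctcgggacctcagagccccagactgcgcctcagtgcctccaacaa

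Searched on both strands over 250 bases, this motif was present in 11.1% of promoters of genes called higher, 12.1% of those called lower and 8.91% of all.

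**Figure D4:**
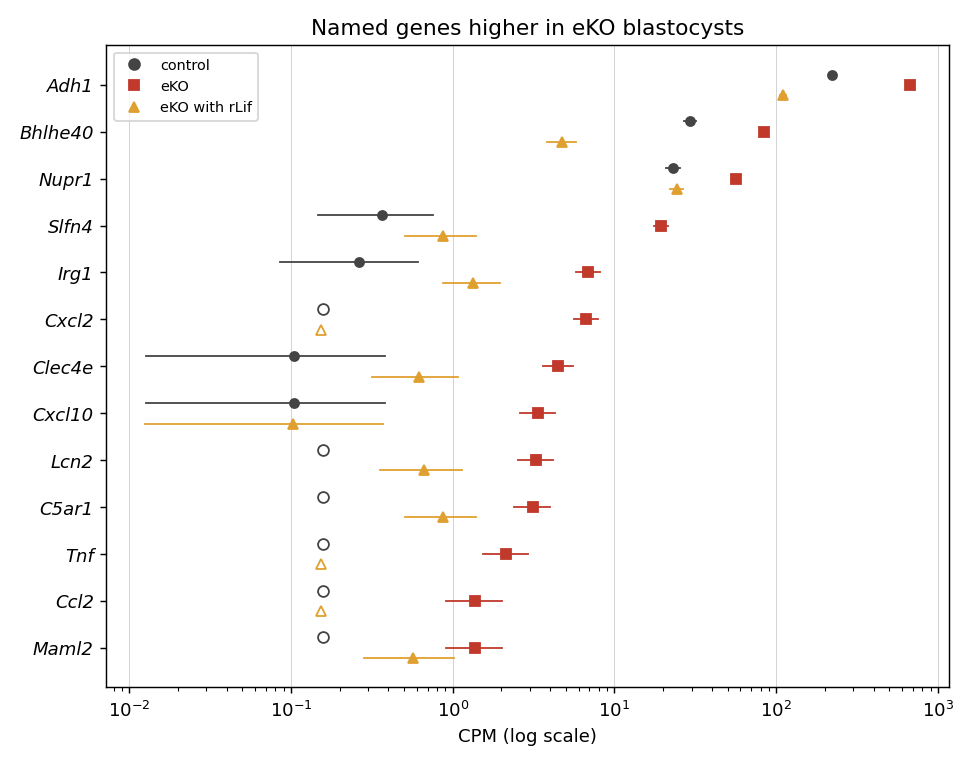
CPM on a log x axis for the named genes called higher in eKO blastocysts, with 1 point per library (control circle, eKO square, eKO with rLif triangle) and exact 95% Poisson intervals. Open symbols stand at the floor of 3 counts for libraries with 0 counts, and for *Cxcl2*, *Tnf* and *Ccl2* both other libraries are at 0.

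Markers of other cell types were measured beside these genes, and over all genes 1.29% were called higher and 1.86% lower. Of 21 leukocyte markers measured, 2 were called higher (*Cd14*, with 30, 196 and 111 counts, and *S100a8*, with 6, 33 and 7) and 1 lower (*Cd3e*, with 26, 4 and 14). Their summed level was 280 CPM in control, 389 in eKO and 313 with rLif, and their median log2 ratio was 0.52. *Csf3r*, the receptor for a granulocyte growth factor, made up most of each sum, with 176, 217 and 266 CPM and only 48 and 49 counts in the luminal libraries labelled control and eKO. Without it, a step added after the values were seen, the sums were 103, 172 and 47.3 CPM. The eKO library was then the highest of the 3 and the rLif library the lowest. *Lyz2* alone made up 51.2, 109 and 14.9 CPM of these sums. Of the 21 markers, 14 had ratios above 0 and 7 below. *Cd74* (286, 175 and 131 counts) and *Gzmb* (50, 23 and 16) were among those below. The pan-leukocyte gene *Ptprc* had 26, 41 and 19 counts, *Lyz2* of macrophages had 976, 2128 and 289, and *Mpo* was at 0 in control and eKO. Of 20 markers of uterine stroma and muscle measured, 5 were called lower (*Col1a2*, *Col6a1*, *Vim*, *Thy1* and *Igf1*) and 0 higher, with summed levels of 62.5 CPM in control, 41.2 in eKO and 32.8 with rLif (51.8, 25.9 and 19.6 without *Pdgfrb*, its member of highest CPM). *Vim*, an intermediate filament gene, had 191, 72 and 100 counts. Of 20 uterine epithelial markers measured, 3 were higher (*Calb1*, *Lcn2* and *Lrg1*) and 1 lower (*Igfbp3*), with summed levels of 631, 631 and 405 CPM and *Clca1* and *Prss28* at 0 in control and eKO. Of 10 red blood cell and endothelial markers, 1 was lower (*Kdr*, with 27, 0 and 0 counts), and their summed levels were 136 CPM in control and 137 in eKO. *Kdr* reached the count minimum through the control library alone. *Alas2*, a heme synthesis gene of red cells, had 831, 697 and 364 counts, and *Tie1*, an endothelial receptor gene, had 312, 525 and 870. *Hba-a1* and *Hba-a2* were listed at 0 in control and eKO, but they are near-identical copies, and the widely used genes *Oaz1* and *Amd1* were also listed at 0 there, so these zeros do not show absence. Genes over 10 times higher in a luminal library than in any blastocyst library made up 27.6% of those called higher and 20.7% of those called lower, against 8.75% of all measured. Genes listed at 0 in every luminal library were more frequent among calls too, at 10.4% of those called higher and 12.0% of those called lower. Their share of all measured was 4.26%. Most calls were rare transcripts, and these shares were not matched for abundance. The part of cells carried over from the uterus in the differences was not tested. In bulk libraries, fewer cells of a type and less RNA per cell cannot be told apart.

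Only 3 genes of at least 20 CPM were called higher. *Adh1*, an alcohol dehydrogenase, had 4242 counts in control, 13106 in eKO and 2138 with rLif (1.59, 1.54 to 1.64). *Nupr1*, a stress-induced regulator, had 440, 1095 and 472 counts (1.28, 1.12 to 1.44), and *Bhlhe40*, given above, had a log2 ratio of 1.52 (1.38 to 1.66). In each, the eKO library was the highest of the 3. Next in order and not called was *Lyz2* of macrophages, given above, with 976, 2128 and 289 counts. It was followed by *Efna1*, an ephrin ligand with 1223, 2567 and 412 counts (1.03, 0.93 to 1.13). *Acpp*, an acid phosphatase, had 1288, 2660 and 1421 (1.01, 0.91 to 1.11), and *Nt5e*, which makes adenosine from AMP, had 277, 596 and 393 (1.07, 0.86 to 1.28). *Ppp1r3b*, a glycogen-targeting phosphatase subunit, had 5132, 9038 and 4550 counts (0.78, 0.73 to 0.83), and *Klf15*, a transcription factor, had 379, 758 and 449 (0.96, 0.78 to 1.15). In these genes, too, the eKO library was the highest of the 3. *Lefty2*, a Nodal inhibitor, had 361, 705 and 491 counts (0.93, 0.74 to 1.12) and was not called. Among stress response genes, 1 of 29 was higher (*Slc7a11*) and 1 lower (*Atf3*), and the chaperone *Hspa5* had 31658, 25626 and 26307 counts (-0.34).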

How the data were processed

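Pooled blastocysts were turned into SMART-seq v4 libraries by the authors, who aligned reads to GRCm38/mm10 with HISAT2 and counted them with featureCounts (Subread 2.0.0), per the labels. The deposited values were whole-number counts per gene, without normalization. The annotation release and the strand and multimapping settings were not given in the sources used here, so genes with overlapping exons (1783 of 14873) or near-identical copies are uncertain.

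TMM from edgeR 4.0.16 (R 4.3.3) set the library sizes. Ratios have exact 95% Clopper-Pearson intervals, and a gene was called where its interval lay beyond a log2 ratio of 1 in size. Intervals and floors cover counting error only. Libraries with 0 counts were set at a floor of 3 counts for folds. List medians used ratios with 0.5 counts added. The rule was run on simulated counts that held counting error only, with the changed genes taken from the less rare ones. Such data cannot show how the rule behaves with spread between pools or for rare genes. The 27 gene lists and members were chosen with earlier results of these data known. Named genes were the 10 called per direction with the largest interval bound nearest 0, the 10 per direction among genes of at least 20 CPM, called list members, for each list the 4 of highest mean CPM and the 2 largest ratios among members with at least 50 counts, the Lif pathway genes and the 10 of highest mean CPM; not all are described, and some list members are not reported here. Promoters came from RefSeq. Alternatives were scaling (DESeq2 1.42.0 size factors, totals), count minimum, fold limit, an assumed dispersion and gene filters.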

Additional observations from a re-analysis of the deposited data

Results flagged for a closer look

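Among the leading genes of at least middle abundance, 4 were beyond 2-fold between eKO and control in both tissues but in opposite directions. The difference between tissues was not tested, since each group was 1 library, and each log2 ratio (eKO against control) compares pools. *Krt19* was -2.58 in blastocysts and 2.56 in the luminal layer, where it had 8537 counts in control and 57150 in the library labelled eKO. *Itga7* was -2.23 in blastocysts and 5.17 in the luminal layer, from 1 and 41 counts. *Nupr1* was 1.28 and -3.57, from 12110 and 1160 luminal counts. *Slfn4* was 5.72 and -3.43, from 38 and 4 luminal counts. Of the luminal libraries, the one labelled control held 0 *Lif* counts and the one labelled eKO, meant to lack epithelial *Lif*, held 28. The authors place Lif in the glands before attachment, so these low counts in the luminal layer cannot decide whether the labels are right. The luminal directions carry that limit.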

How the results depend on the processing

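The counts of called genes (468, 192 higher and 276 lower) stayed within 1.5 times under DESeq2 size factors, total counts, TMM over the most abundant class of genes, a minimum of 1 count, and without overlapping genes, X and Y genes, or genes over 10 times higher in a luminal library. They moved with a minimum of 50 counts (209 called, 71 higher and 138 lower), a limit of 0 (6667, 3393 and 3274), a log2 limit of 2 (100, 32 and 68), edgeR's exact test at an assumed dispersion of 0.1 (65, 20 and 45) and 0.2 (10, 4 and 6), and a mean of at least 20 CPM, added after seeing the data (19, 3 and 16). Named genes were recomputed under the 3 other scalings alone, and only *Slc7a8* crossed the threshold there, called lower under total counts (-1.08) and under TMM over that class (-1.09). No called named gene reversed under those scalings. Scaling moved no list median by more than 0.0143, and a minimum of 50 counts moved 1 by up to 0.395, that of giant cell differentiation (0.09 to 0.48). The signs of the medians of the cavity, dormancy and respiratory chain lists, all near 0, changed with scaling. With a minimum of 50 counts, the sign of the dormancy list (to -0.003) and of the oocyte list (-0.33 to 0.03) changed. No paired analysis was possible because each group was 1 library. With 1 library a group, the spread between pools is unknown, and rare genes rest on few counts.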

Other observations

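Most members of further gene lists were not called in eKO blastocysts, and over all genes 1.29% were called higher and 1.86% lower. Of 21 amino acid transport genes, *Slc7a11* was called higher and the median log2 ratio was -0.13. *Slc7a8*, a neutral amino acid transporter, had 4195 counts in control, 2046 in eKO and 612 with rLif (log2 ratio -1.07) and lay at the edge of the rule. Of 29 cholesterol and lipid synthesis genes, *Fads2*, a fatty acid desaturase (39, 6 and 12 counts), was lower and the median was -0.02. None of 14 polyamine synthesis genes was called (median 0.06), and *Odc1*, the first enzyme of the pathway, had 12724, 12032 and 14599 counts. Of 11 oocyte and 2-cell genes, *Nlrp14* was higher and *Gdf9* and *Tcstv1* were lower, each from 12 or fewer counts in these 2 libraries. The median was -0.33, or 0.01 with libraries at 0 set at the floor of 3 counts.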
